A study of Mus musculus with 4 samples.

Results

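Trem2, Tyrobp, Apoe and Gpnmb were followed in CSF1R+ myeloid cells of normal and infarcted mouse hearts. The members were the rows of the deposited gene tables whose symbol is 1 of these names, which gave 4 of 31053 genes: Trem2 (ENSMUSG00000023992), Tyrobp (ENSMUSG00000030579), Apoe (ENSMUSG00000002985) and Gpnmb (ENSMUSG00000029816). Cells came from CSF1R-EGFP reporter mice, known as MacGreen, in which the Csf1r promoter drives EGFP, aged 12 to 16 weeks, with no other allele given for any group. Baseline was 1 library of 3 pooled hearts without infarction. Infarct hearts gave 1 library each, 3 in all, taken 7 days after permanent occlusion of the left anterior descending coronary artery. EGFP+ cells negative for the neutrophil marker Ly6G were sorted and run on droplet-based single-cell RNA sequencing with a 3' kit. The reporter marks all cells with Csf1r promoter activity, not macrophages alone, the pooled baseline hearts cannot be told apart, and the time course held no other day in these libraries.

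TREM2 is a lipid-sensing receptor of macrophages and microglia that has no signalling tail of its own. It pairs with TYROBP (also called DAP12), an adaptor whose activation motif recruits the kinase SYK and which also serves several other myeloid receptors. APOE, the apolipoprotein that carries cholesterol out of cells, is a ligand of TREM2. GPNMB is a glycoprotein of lysosomal and plasma membranes made by macrophages loaded with lipid or debris, and it is transcribed under the MiT family factors MITF and TFEB. The 4 genes are commonly listed together as markers of lipid-associated macrophages in fat, atheroma, scar and brain.

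On GRCm38 (GENCODE M21), Trem2 lies on the plus strand of chromosome 17 at 48346401-48354147, 99476 bases from Trem1 and 87559 bases from Trem3, receptors that also pair with TYROBP. Tyrobp lies on the plus strand of chromosome 7 at 30413760-30417585, with 126 bases between it and Hcst, which codes for the sister adaptor DAP10 on the opposite strand. Apoe lies on the minus strand of chromosome 7 at 19696109-19699188, beside Apoc1, Apoc4 and Apoc2, from which 3448, 14629 and 18167 bases separate it. Gpnmb lies on the plus strand of chromosome 6 at 49036546-49070929. No annotated gene overlaps any of the 4. The 250 bases before the start of 3 of the genes are printed because Trem2, Apoe and Gpnmb are the members with the largest ratios between infarct and baseline, and they come from RefSeq on GRCm38.p6. Capitals mark GAGGAA or its reverse complement TTCCTC, the core bound by ETS factors such as PU.1.
Trem2, chr17:48346151-48346400, strand +: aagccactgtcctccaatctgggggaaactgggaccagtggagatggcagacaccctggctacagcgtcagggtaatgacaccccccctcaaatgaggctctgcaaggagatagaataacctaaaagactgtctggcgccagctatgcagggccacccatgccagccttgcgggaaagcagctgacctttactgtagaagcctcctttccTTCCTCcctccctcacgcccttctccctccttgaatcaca
Apoe, chr7:19699189-19699438, strand -: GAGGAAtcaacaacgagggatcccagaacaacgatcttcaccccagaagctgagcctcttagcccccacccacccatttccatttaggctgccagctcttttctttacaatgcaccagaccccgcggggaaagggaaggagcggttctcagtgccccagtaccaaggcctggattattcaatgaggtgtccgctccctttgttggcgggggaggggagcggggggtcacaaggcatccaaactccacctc
Gpnmb, chr6:49036268-49036517, strand +: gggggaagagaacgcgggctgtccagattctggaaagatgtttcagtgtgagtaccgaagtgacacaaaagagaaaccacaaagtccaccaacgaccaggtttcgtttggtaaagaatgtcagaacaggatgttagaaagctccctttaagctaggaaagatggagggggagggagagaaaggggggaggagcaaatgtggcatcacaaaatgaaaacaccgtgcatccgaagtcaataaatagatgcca
The windows of Trem2 and Apoe each held 1 GAGGAA core, 40 and 250 bases before the start, and that of Gpnmb held none. The core is in 23.3% of the 32851 promoter windows of the same table. The E-box CACGTG (6.02% of windows), the M-box core CATGTG (12.3%), which MITF and TFEB bind, and the AP-1 site TGACTCA (4.46%) were in none of the 3 windows on either strand. These are matches of letters and not measured binding. Apoe has 3 RefSeq starts, and the window is that of the start at the annotated gene end. Tyrobp has no window in the table.

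The tables held 10144 to 10804 cells per library. Cells with over 200 genes and a total of 500 to 40000 UMIs (unique molecular identifiers) were kept, which left 10238 baseline cells and 10396, 10782 and 10117 infarct cells, with 70982109 UMIs at baseline and 88048742 to 97301304 in the infarcts. The study analysed fewer cells than this filter leaves. The baseline library was shallower, with a median of 6398.5 UMIs per cell against 8469.5 to 8556.5. Csf1r itself was found in 89.7% of baseline cells and in 90.6% to 93.9% of infarct cells, and Ly6g, the marker sorted against, was at most 0.0339 CPM (the UMIs of a gene per 1000000 UMIs of the library, mitochondrial genes left out). Lists for other cell types were low in sum, with no gene at 0 among the genes kept. Of the T or NK cell list, 4 of 5 genes were among those kept. Granulocyte genes ran from 196 to 248 CPM, endothelial genes at 43 CPM in baseline and 11.4 to 12.7 in infarcts, and fibroblast genes at 19.5 CPM in baseline and 252, 54.8 and 68.3 in infarct replicates 1, 2 and 3. Hemoglobin genes were at 89.2 CPM in baseline and 167 CPM in infarct replicate 3 but below 1 CPM in infarct replicates 1 and 2. Their part in the results was not tested. Each pair of libraries shared 26 to 34 cell barcodes, at most 0.332% of a library. Trem2, Apoe, Tyrobp and Gpnmb were in no list used to name cells.

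All 4 genes were higher in every infarct library than in the baseline library, 3 of them by over 2-fold. The Trem2 level was 202 CPM at baseline (95% counting interval 198 to 205) and 741, 949 and 901 CPM in infarct replicates 1, 2 and 3. The infarct mean was 864 ± 109 CPM (SD, n = 3), which is 4.29-fold and 2.10 on the log2 scale. The lowest infarct heart thus lay well above baseline, and the infarct hearts differed among themselves by less than that gap. Apoe was at 10718 CPM (10693 to 10742) at baseline and at 27367, 39526 and 34778 CPM in the infarcts, a log2 ratio of 1.66 with a mean of 33890 ± 6128. Apoe UMIs were 1.07% of all UMIs of the baseline library and 2.74%, 3.95% and 3.48% of those of the infarct libraries. For both Trem2 and Apoe the lowest infarct value was that of replicate 1. Gpnmb was at 53.7 CPM (51.9 to 55.5) at baseline and at 164, 134 and 196 CPM in the infarcts, with a mean of 165 ± 31.3 and a log2 ratio of 1.62. Tyrobp was at 2172 CPM (2161 to 2183) at baseline and at 2932, 3045 and 2926 CPM in the infarcts, with a mean of 2968 ± 67.1 and a log2 ratio of 0.45. The adaptor therefore had the smallest ratio of the 4 and the tightest infarct values. With 1 baseline library there is no replicate spread on that side, so these are ratios with no test.

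Genes were called here when all 3 infarct libraries lay at least 2-fold to the same side of baseline. Trem2, Apoe and Gpnmb were called higher, beside 1.69% of the 7708 genes averaging 10 CPM or more, while 3.32% were called lower. The median log2 ratio of all these genes was -0.17, and with TMM scaling it was 0.07, so that every member was higher on both scales. In macrophage-like cells alone, Trem2 was 251 CPM at baseline and 868, 1056 and 982 CPM in the infarcts, Apoe 14303 against 32637, 44952 and 38715, and Gpnmb 44.9 against 184, 142 and 197. The same 3 members were called higher there, beside 1.97% of 7678 genes called higher and 3.99% called lower. Tyrobp was 1982 CPM against 2900, 3024 and 2886 CPM in these cells, a log2 ratio of 0.57.

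**Figure D1:**
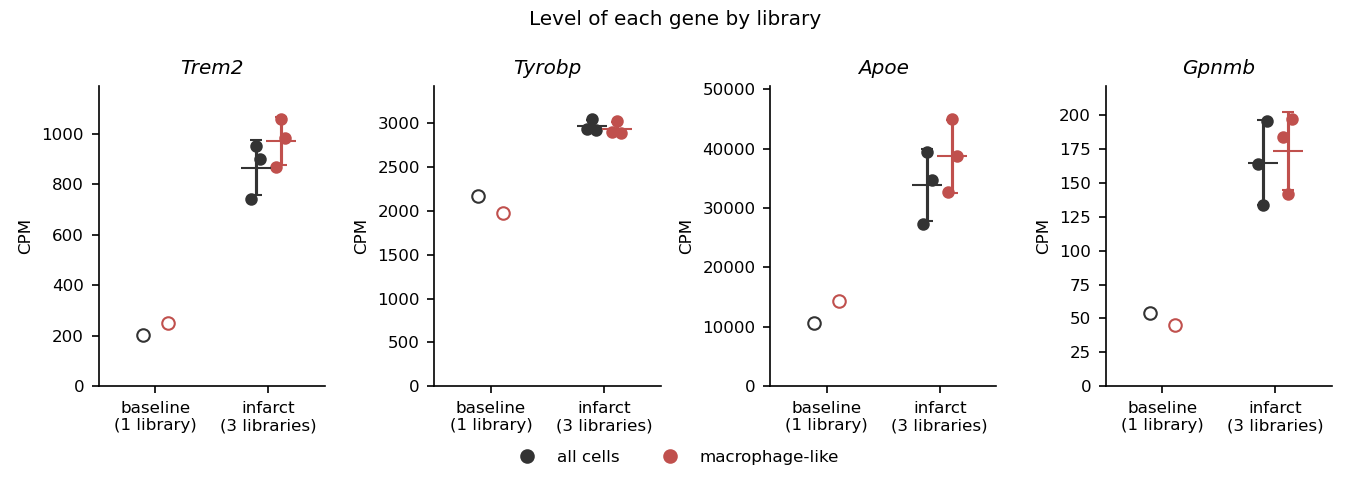
Level of each gene in CPM (vertical axis, from 0) in the baseline library (open point with its 95% counting interval, which is smaller than the point) and the 3 infarct libraries (filled points, with mean and SD), over all cells and over macrophage-like cells. Every infarct point lies above the baseline point; for Trem2 in all cells the infarct points run from 741 to 949 against 202 CPM.

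Cells were gated by the share of marker UMIs per 10000. Macrophage-like cells had at least 20 C1q UMIs (C1qa, C1qb, C1qc) per 10000 and made up 68% of baseline cells and 78.4%, 84.7% and 84.6% of infarct cells. Between 4.03% and 8.21% of a library's cells lay near that cut, so the gate is a range and not a sharp type. Macrophage-like cells were divided in turn into cycling, interferon-response, Saa3 Arg1, resident (Lyve1, Timd4, Folr2 and others), Spp1-high, Ccr2, MHC-II-high and, for what remained, MHC-II-low. Cells with less C1q were divided into dendritic-like and monocyte-like classes and a Spp1-high C1q-low class. The makeup of the hearts differed: resident macrophage-like cells were 3483 of the baseline cells and 2.08% ± 0.553 of infarct cells (SD, n = 3), while MHC-II-low macrophage-like cells were 414 of the baseline cells and 28.8% ± 7.07 of infarct cells. Spp1-high macrophage-like cells numbered 27 at baseline and were 5.93% ± 1.04 of infarct cells. Saa3 Arg1 cells were uneven between infarcts, 4.65% ± 4.03.

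The levels in the infarct and baseline libraries were then weighted to the baseline mixture of 13 classes, which hold 97.4% of baseline UMIs. These 13 include the mixed-marker cells and the C1q-low cells that no gate named. On this fixed mixture Trem2 was 203 CPM at baseline and 618 ± 86.5 in infarcts (3.04-fold), Apoe 10920 against 25213 ± 4788 (2.31-fold) and Tyrobp 2192 against 2998 ± 123 (1.37-fold). Gpnmb was 47.2 against 62.9 ± 18.2 CPM, 1.33-fold. The lowest infarct values were 519 CPM for Trem2, 20698 CPM for Apoe and 48.6 CPM for Gpnmb. Fixing the mixture thus left the Tyrobp ratio as it was and lowered that of Gpnmb from a log2 of 1.62 to 0.42. The Gpnmb value leans on few baseline cells. Of baseline Gpnmb UMIs, 26.2% lay in 27 Spp1-high macrophage-like cells and 26% in the C1q-low cells that no gate named. Trem2 stayed over 2-fold above baseline in every infarct library, while Apoe did so on average but not in its lowest library, so that of the 3 calls over all cells Trem2 alone held on this mixture.

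Within 11 classes that could be compared, Trem2 and Apoe were above baseline in all 3 infarct libraries in 11 of 11. Any amount above baseline counted here. The share of all genes that met the same rule is not given, so these counts are a description. Trem2 log2 ratios ran from 0.62 in non-classical monocyte-like cells to 2.31 in cycling macrophage-like cells, and Apoe ratios from 0.34 in type 2 dendritic-like cells to 2.31 in MHC-II-low macrophage-like cells. Tyrobp was above baseline in all 3 infarct libraries in 10 of 11, with ratios from 0.07 in granulocyte-like cells to 0.68 in cycling macrophage-like cells. Gpnmb was above in 7 and below in 2. Among the 7, granulocyte-like cells had 0 Gpnmb UMIs at baseline and 1, 1 and 2 in infarcts. Non-classical monocyte-like cells had 9 at baseline and 2, 1 and 2 in infarcts, so both lie near the floor. In resident macrophage-like cells Gpnmb was 7.12 CPM at baseline (6.09 to 8.28) and 40.1, 44.5 and 64.9 CPM in infarcts. In the Spp1-high macrophage-like cells it was 2125 CPM at baseline (1992 to 2265, from 27 cells) and 862, 571 and 969 CPM in infarcts. In MHC-II-low macrophage-like cells it was 232 CPM (212 to 254) against 208, 148 and 222. A few baseline cells therefore had more Gpnmb per UMI than the same gate in any infarct heart. In the MHC-II-low gate a Gpnmb UMI was found in 4.11% of baseline cells and in 34.2%, 29.3% and 36.9% of infarct cells. That gate paired cells of unlike depth: median UMIs per cell were 4182.5 at baseline and 8515.5, 8444 and 8719 in the infarcts. Its median C1q shares, on the scale of the gates, were 87.3 against 170, 199 and 175. What these differences add to the Apoe and Gpnmb ratios of that gate was not tested. The resident gate also paired unlike cells: median shares of its marker list were 33.8 at baseline and 16.9, 15.3 and 15 in the infarcts. Its median MHC-II shares were 68.5 against 22.8, 9.86 and 9.42. What this adds to the ratios of the resident gate was not tested.

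**Figure D2:**
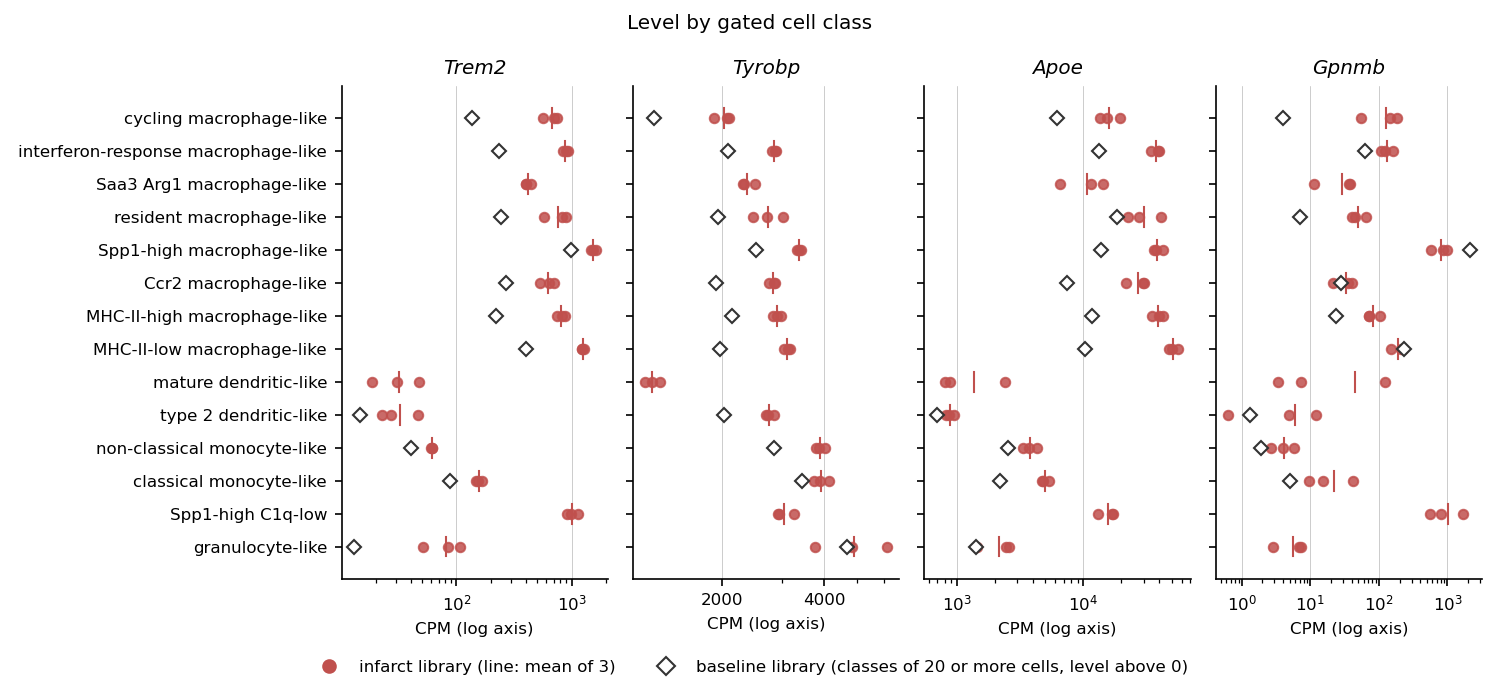
Level of each gene in CPM (horizontal log axis) by gated class; red points are the 3 infarct libraries, the red line is their mean, and open diamonds are the baseline library where the class has 20 or more cells and a level above 0. Trem2 and Apoe are spread over the macrophage-like classes and are low in dendritic-like cells, Tyrobp spans the narrowest range, and Gpnmb peaks in both Spp1-high classes, at 801 and 1013 CPM on average.

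Across the classes of the infarct hearts the 4 genes had different orders. Trem2 was highest in Spp1-high macrophage-like cells, at 1489, 1533 and 1617 CPM in replicates 1, 2 and 3, and next in MHC-II-low macrophage-like cells at 1223, 1279 and 1239 CPM. Neither range touched that of the next class. From the Spp1-high C1q-low class (1018 ± 117 CPM) through the interferon-response, MHC-II-high, resident and cycling classes to the Ccr2 class (621 ± 81.8 CPM) each neighbour overlapped the next. Trem2 dropped to 415 ± 24.5 CPM in Saa3 Arg1 cells, 156 ± 8.58 in classical monocyte-like cells and 32.1 ± 12.8 in type 2 dendritic-like cells. Apoe was highest in MHC-II-low macrophage-like cells, at 47254, 56636 and 50184 CPM, apart from every other class. It was 38955 ± 3851 CPM in the MHC-II-high, 38594 ± 3321 in the Spp1-high and 37785 ± 3240 in the interferon-response class, whose ranges overlapped, and 876 ± 59.5 CPM in type 2 dendritic-like cells. Tyrobp was high outside the macrophages: 4913 ± 1195 CPM in granulocyte-like cells, 3923 ± 204 in classical and 3888 ± 112 in non-classical monocyte-like cells, ranges that overlapped, and lowest in mature dendritic-like cells (1244 ± 63). Gpnmb was 1013 ± 589 CPM in Spp1-high C1q-low cells, spread from 559 to 1679, and 801 ± 206 CPM in Spp1-high macrophage-like cells, which overlapped. The next class, MHC-II-low, was at 192 ± 39.4 CPM, below both, and monocyte-like and type 2 dendritic-like cells were between 4.12 and 22.3 CPM on average.

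Each class was then tested against all other cells of the same infarct library in edgeR (quasi-likelihood test on sums per library with the library as a block, Benjamini-Hochberg adjustment across every gene tested, threshold 0.01). Of 56 contrasts, 14 classes by 4 genes, 12 were called higher, 28 lower and 16 were not called. The Spp1-high macrophage-like class was the class in which all 4 members rose (20.8% of all genes tested were called there in either direction). Gpnmb rose by 2.89 ± 0.09 on the log2 scale (estimate ± SE, edgeR adjusted p 1.8e-10), Trem2 by 1.04 ± 0.07 (1.8e-07), Apoe by 0.31 ± 0.06 (0.0023) and Tyrobp by 0.29 ± 0.05 (5.0e-04). The calls of Apoe and Tyrobp were lost without infarct replicate 3 (edgeR adjusted p 0.028 and 0.019), and the Apoe difference was 0.16 (0.023) against other macrophage-like and monocyte-like cells alone and 0.07 (0.37) with gate thresholds doubled. In the MHC-II-low class (24.4% called), Apoe rose by 0.94 ± 0.07 (edgeR adjusted p 1.6e-04), Trem2 by 0.81 ± 0.07 (2.3e-04) and Gpnmb by 0.32 ± 0.05 (0.0044), and the Tyrobp difference of 0.10 ± 0.04 was not called. The Gpnmb call there was lost without infarct replicate 3 (edgeR adjusted p 0.026) and was 0.05 (0.35) with gate thresholds halved. The pair of gates thus split the members: Gpnmb stood out in the first and Apoe in the second, and Trem2 was high in both.

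In the interferon-response class (14.1% of genes called), Apoe rose by 0.34 ± 0.04 and Trem2 by 0.21 ± 0.05 (edgeR adjusted p 2.7e-08 and 0.0026), and Trem2 missed the threshold when infarct replicate 1 was left out (0.14, adjusted p 0.092), with gate thresholds doubled (0.13, 0.13), with thinned cells (0.22, 0.013) and against other macrophage-like and monocyte-like cells alone (0.10, 0.18). In the MHC-II-high class (13.7% called), Apoe rose by 0.38 ± 0.05 (edgeR adjusted p 0.0011; 0.013 without infarct replicate 3, and 0.16 with an adjusted p of 0.015 with gate thresholds doubled) while Gpnmb fell (-1.09, 3.5e-05). The Trem2 difference there was 0.01 ± 0.03 and was not called, but it was -0.24 (edgeR adjusted p 1.6e-04) with gate thresholds doubled. Gpnmb was the member that fell in resident cells (13.7% called; -1.87, edgeR adjusted p 9.4e-19), and Trem2 and Apoe were -0.31 ± 0.09 and -0.30 ± 0.09 there, just short of the threshold at adjusted p 0.012 and 0.011. All 3 differences in resident cells moved with the gate. With thresholds halved they were -0.37 for Gpnmb (edgeR adjusted p 0.039), 0.10 for Trem2 (0.16) and 0.02 for Apoe (0.75), none of them called. With thresholds doubled Gpnmb was still called lower, and so were Trem2 (-0.83, edgeR adjusted p 1.8e-07) and Apoe (-0.89, 3.6e-08). Against other macrophage-like and monocyte-like cells alone Trem2 and Apoe were called lower too (-0.41 and -0.43, edgeR adjusted p 8.5e-04 and 5.2e-04). In Ccr2 cells (15.8% called), Gpnmb (-2.43), Trem2 (-0.45) and Apoe (-0.28) fell, and the Apoe call was lost with gate thresholds halved (-0.06, edgeR adjusted p 0.11). Saa3 Arg1 cells (24.9% called) had lower Gpnmb (-2.52), Apoe (-1.83) and Trem2 (-1.16). Cycling cells (22.8% called) had lower Apoe (-1.16), Tyrobp (-0.63) and Trem2 (-0.43), and the Trem2 call was lost with doublets removed (-0.41, edgeR adjusted p 0.012). Every member thus had macrophage-like classes called higher and others called lower; for Tyrobp these were 1 of each.

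Outside the macrophage gate the contrasts were larger and mostly downward. Trem2 (-4.76), Apoe (-5.26) and Gpnmb (-4.58) fell in type 2 dendritic-like cells (30.8% of genes called), antigen-presenting cells in which Tyrobp differed by -0.08 ± 0.04 and was not called. In mature dendritic-like cells (22.5% called) all 4 members fell, Tyrobp with a log2 difference of -1.21. In classical monocyte-like cells (29.7% called), Trem2 (-2.48), Apoe (-2.78) and Gpnmb (-3.10) fell while Tyrobp rose by 0.47 ± 0.05 (edgeR adjusted p 1.6e-04). In non-classical monocyte-like cells (20.3% called) Trem2, Apoe and Gpnmb fell, with differences of -3.93, -3.26 and -5.47. The same members fell in granulocyte-like cells (13.2% called), with -3.58, -4.25 and -5.30. Monocyte-like cells thus held the adaptor transcript at or above the level of the other cells, while their Trem2 transcript was below that of the other cells. Its mean was 156 CPM in classical and 61.1 CPM in non-classical cells. Without thinning, a Trem2 UMI was still found in 56.9%, 51.8% and 47.7% of classical cells in infarct replicates 1, 2 and 3. The Spp1-high C1q-low class (16% called) had Gpnmb higher by 2.55 ± 0.11 and Apoe lower (-1.12 ± 0.08), both called, with Trem2 at 0.23 ± 0.10 and Tyrobp at 0.02 ± 0.09, not called. Without the library block 11 of the 40 calls were lost, among them Apoe in the Spp1-high and MHC-II-high classes and Gpnmb in the MHC-II-low and MHC-II-high classes.

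Detection per cell followed the levels in macrophage-like cells as a whole. It did not for Gpnmb in MHC-II-low macrophage-like cells, whose level was higher at baseline while the share of cells was lower. With every cell thinned to 2000 UMIs, Trem2 was found in 74.2% ± 4.69 of infarct macrophage-like cells (SD, n = 3) and in 33.4% of those of the baseline library. In type 2 dendritic-like cells, which should lack it, the share was 6.6% ± 1.38 in infarcts, from cells with a median of 9519 to 9763.5 UMIs before thinning against 8538 to 8627.5 in the macrophages. Gpnmb was found in 13.9% ± 1.48 of infarct and 1.27% of baseline macrophage-like cells, against 1.06% ± 0.664 of infarct type 2 dendritic-like cells. In the baseline library's own type 2 dendritic-like cells, Trem2 was found in 3 of 210 (1.43%, exact 95% interval 0.296 to 4.12) and Gpnmb in 0 of 210, which allows a share of up to 1.74% by the exact interval. The baseline share of Gpnmb in macrophage-like cells lay below that bound, so the share alone could not be told from background with this number of cells. The levels were apart: 44.9 CPM (43 to 46.9) in baseline macrophage-like cells and 1.31 CPM (0.27 to 3.83) in baseline type 2 dendritic-like cells. Among baseline Spp1-high macrophage-like cells Gpnmb was found in 20 of 27. Tyrobp was in 98.8% ± 0.404 and 96.1%, and Apoe in 99.4% ± 0.153 and 96.1%, of infarct and baseline macrophage-like cells. Apoe was in 69.8% ± 6.92 of infarct type 2 dendritic-like cells, so its detection hardly separates cells and its level must be used. Without thinning, 45.3% of all baseline cells had a Trem2 UMI and 77.7%, 85.5% and 82.5% of infarct cells did, and the corresponding shares of Gpnmb were 2.07% and 20.2%, 21.6% and 26%.

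Gpnmb UMIs were concentrated in few cells. The 5% of cells with the most Gpnmb held 100% of its UMIs at baseline and 73.1%, 67.7% and 68.6% in infarct replicates 1, 2 and 3, against 38.8% and 19% to 23% for Trem2. Both Spp1-high gates together held 40.5% of baseline Gpnmb UMIs from 0.43% of baseline cells. In the infarcts they held 50.5%, 40.5% and 36.7% of the Gpnmb UMIs from 7.62%, 7.77% and 5.43% of the cells. At baseline a further 26% of Gpnmb UMIs lay in C1q-low cells that no gate named, where the level was 207 CPM against 89.3, 69.3 and 191 CPM in the infarcts. Macrophage-like cells held 58.3% of baseline and 86.4% to 90.1% of infarct Gpnmb UMIs. The source of Trem2 shifted as well: resident macrophage-like cells held 42.1% of its UMIs at baseline and 1.17% to 2.21% in the infarcts, while MHC-II-low macrophage-like cells held 6.22% at baseline and 33.6%, 44.2% and 42.9% in the infarcts. The same turnover from resident to MHC-II-low cells was in the cell numbers, and Trem2 per UMI was higher within both gates in the infarcts. Both gates paired unlike cells of baseline and infarct, as given above.

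**Figure D3:**
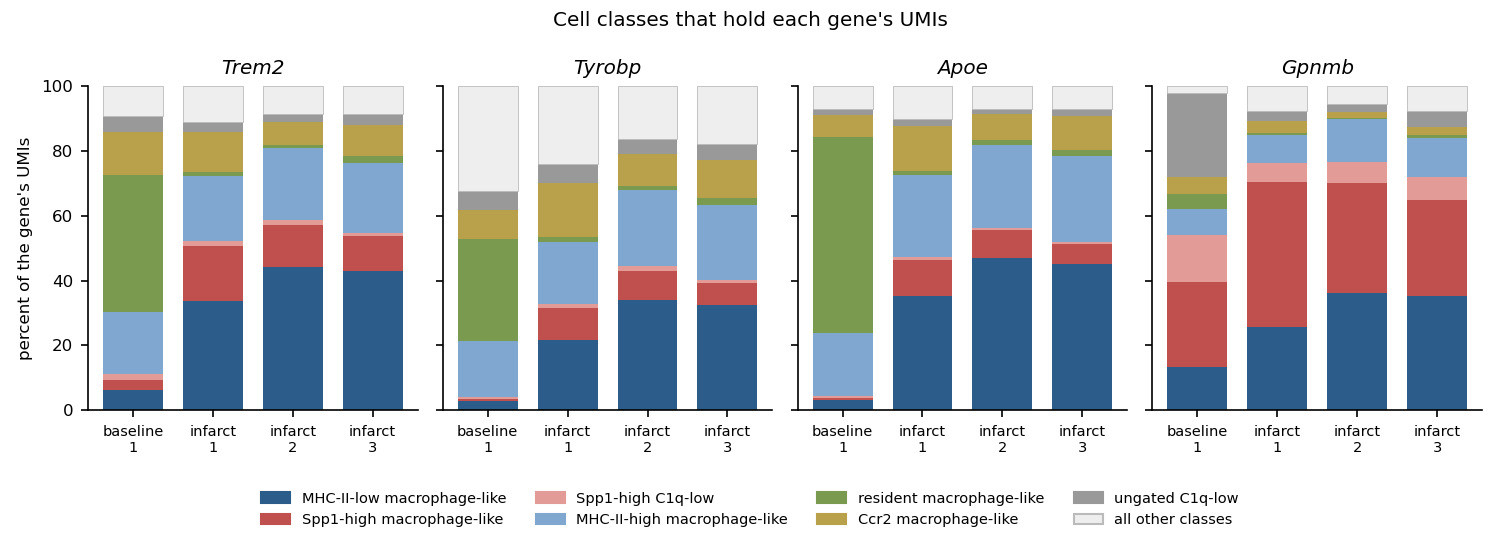
Share of each gene's UMIs (vertical axis, percent) that lay in each cell class, 1 bar per library. Resident cells hold 42.1% of baseline Trem2 UMIs and at most 2.21% in infarcts, and both Spp1-high classes hold 36.7% to 50.5% of infarct Gpnmb UMIs.

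To ask which genes go with Gpnmb at equal depth, infarct macrophage-like cells thinned to 2000 UMIs were divided by a Gpnmb UMI, 3280 cells with and 20355 without. Trem2 was 1389, 1546 and 1495 CPM in the cells with Gpnmb and 738, 969 and 861 CPM in those without, in infarct replicates 1, 2 and 3. The means were 1477 ± 80.1 and 856 ± 116 CPM, and Trem2 was higher by 0.84 ± 0.04 on the log2 scale (edgeR adjusted p 1.3e-78, higher in 3 of 3 libraries). No library's cells without Gpnmb reached the Trem2 level of any library's cells with it. How many of all genes tested separate in this way is not given. Apoe was 43305, 55822 and 48985 CPM with Gpnmb and 32916, 46244 and 39767 CPM without, higher by 0.37 ± 0.03 (edgeR adjusted p 2.9e-34, 3 of 3 libraries), with ranges that overlapped between hearts but not within 1. Tyrobp was 3295, 3280 and 3208 CPM against 2750, 2967 and 2745 CPM, higher by 0.26 ± 0.04 (edgeR adjusted p 1.6e-09, 3 of 3 libraries), a call that did not hold when infarct replicate 3 was left out (0.25, adjusted p 0.013). Of 10907 genes tested, 6.64% were called higher and 7.11% lower. Without the library block, the Apoe and Tyrobp calls were lost (edgeR adjusted p 0.17 and 0.092) and Trem2 was still called. In MHC-II-low macrophage-like cells alone all 3 were called with smaller differences, 0.52 for Trem2, 0.22 for Apoe and 0.20 for Tyrobp (edgeR adjusted p 1.9e-26, 4.0e-06 and 1.4e-04).

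The division by a Trem2 UMI, 17575 cells with and 6060 without, used the same cells and is not independent of the first. Gpnmb was 188, 146 and 198 CPM in cells with Trem2 and 44.7, 43.7 and 58.6 CPM in cells without, means of 177 ± 27.6 and 49 ± 8.33, higher by 1.91 ± 0.07 (edgeR adjusted p 3.3e-17, 3 of 3 libraries). Apoe was 39903, 51291 and 45328 CPM against 21796, 33893 and 28538 CPM, higher by 0.76 ± 0.05 (edgeR adjusted p 8.9e-13, 3 of 3 libraries). Both pairs of groups did not overlap across hearts. How many of all genes tested separate in this way is not given. Tyrobp was 2976 ± 90.2 against 2618 ± 123 CPM, higher by 0.23 ± 0.04 (edgeR adjusted p 2.0e-04, 3 of 3 libraries; 0.034 without infarct replicate 3 and 0.3 without the block). Without the block the Apoe call was lost as well (adjusted p 0.11). In MHC-II-low macrophage-like cells alone Gpnmb was higher by 1.11 and Apoe by 0.42 (edgeR adjusted p 2.4e-21 and 2.3e-48). The size also went with depth, with Gpnmb at 1.47 and Apoe at 0.54 when cells were thinned to 1000 UMIs and at 2.71 and 1.04 at 4000 UMIs. Of 10974 genes tested, 4.18% were called higher and 5.47% lower. In the baseline library, with no test, 78 cells had a Gpnmb UMI, and their Trem2 level was 891 CPM (749 to 1052) against 234 (226 to 243) in the others, while Apoe was 16045 against 15268 CPM. With a Trem2 UMI, baseline Gpnmb was 45.6 CPM (39.3 to 52.6) against 6.46 (4.84 to 8.46).

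The level of 1 member against the UMIs of another gave different shapes. Along Gpnmb bins of 0, 1, 2, 3 to 4 and 5 or more UMIs, mean Trem2 was 1.71, 2.7, 3.17, 3.29 and 3.51 UMIs per 2000, so that most of the difference lay between 0 and 2 Gpnmb UMIs. Apoe was 79.3, 101, 102, 93.3 and 85.2 UMIs per 2000 in the same bins. Within each heart Apoe was slightly higher in the cells with the most Gpnmb than in those with none, 69.7 against 65.8, 102 against 92.5 and 83.8 against 79.5 UMIs per 2000 in replicates 1, 2 and 3, and higher still in the bins of 1 and 2 UMIs. Tyrobp was 5.64 in the lowest and 6.84 in the highest bin. Along Trem2 bins of the same sizes, Gpnmb was 0.0979, 0.176, 0.297, 0.438 and 0.798 UMIs per 2000 and Apoe 56.2, 76.4, 88.8, 101 and 114, both higher in each bin than in the one before. Within MHC-II-low macrophage-like cells alone, Trem2 was 2.26, 2.94, 3.41, 3.29 and 3.38 along the Gpnmb bins and Apoe 104, 116, 121, 112 and 104. The highest Gpnmb bin there held 17 cells in the smallest library.

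**Figure D4:**
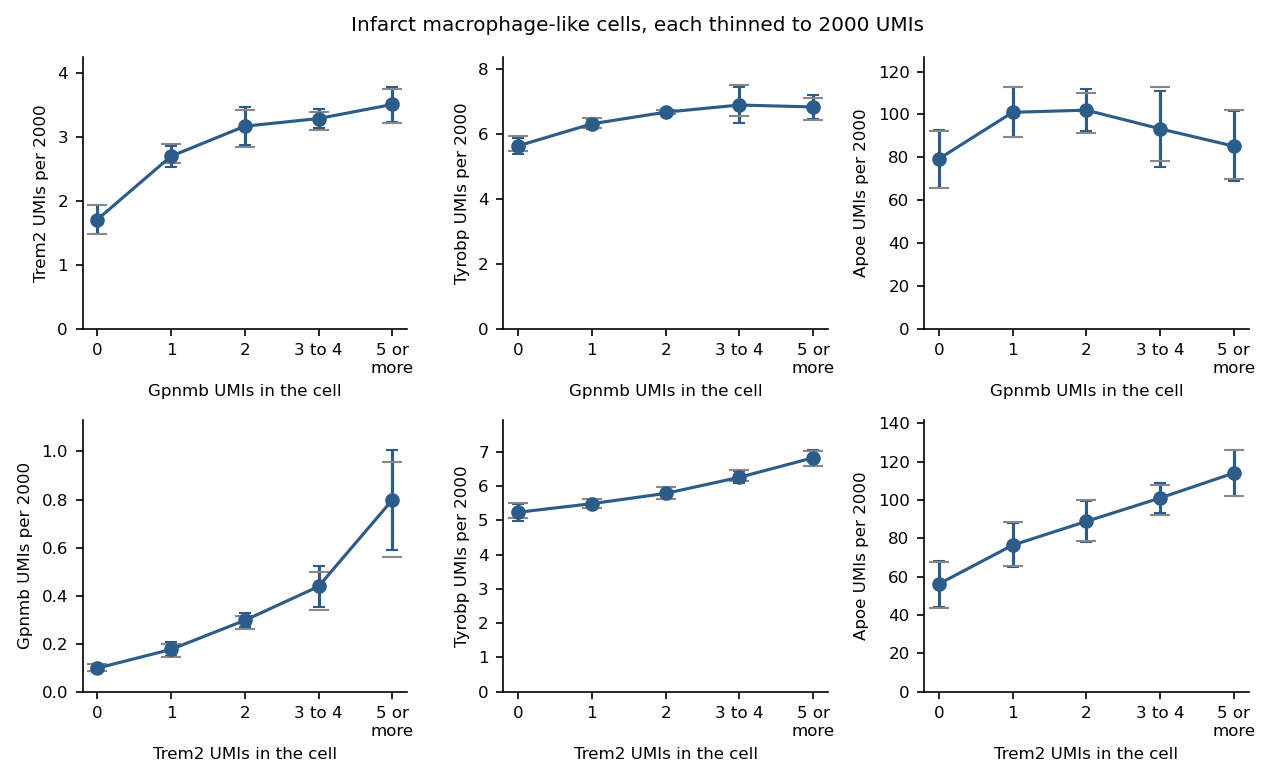
Mean UMIs of each other member per 2000 UMIs (vertical axes, from 0) in infarct macrophage-like cells grouped by their Gpnmb UMIs (top row) or Trem2 UMIs (bottom row); points are the mean of 3 libraries, bars the SD and grey ticks the lowest and highest library. Trem2 climbs from 1.71 to 3.51 along Gpnmb, and mean Apoe is highest in the bins of 1 and 2 Gpnmb UMIs, at 101 and 102. Gpnmb and Apoe climb along Trem2 to 0.798 and 114.

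Co-detection was counted in the same thinned cells, as a description. Trem2 was found in 88.2%, 91.3% and 90.1% of infarct macrophage-like cells with a Gpnmb UMI and in 66.1%, 76.1% and 72.8% of those without, a mean log2 odds ratio of 1.80 ± 0.12 (SD, n = 3). At baseline it was found in 73.1% and 32.9%, a log2 odds ratio of 2.44. The pair was found together in 11.6%, 11.8% and 14.1% of infarct cells and in 0.925% of baseline cells. Within gates the log2 odds ratios varied. They were below the pooled values (1.93, 1.70 and 1.76 in replicates 1, 2 and 3) in MHC-II-low, Spp1-high, MHC-II-high and Ccr2 cells. MHC-II-low cells had 1.02, 1.17 and 1.48 and Spp1-high cells 0.84, 0.80 and 1.03. MHC-II-high cells had 1.88, 1.13 and 1.32 and Ccr2 cells 1.07, 1.43 and 1.34. In resident cells, with 0 to 5 cells in the rarest combination, the ratios were 0.64, 3.08 and -0.10. They were 2.39, 1.62 and 0.81 in interferon-response cells and 0.85, 1.75 and 1.78 in cycling cells. In Saa3 Arg1 cells they were 0.26 and 0.67 in replicates 1 and 3, below the pooled values, and no cell of replicate 2 had Gpnmb. Trem2 with Apoe had a mean of 2.51 ± 0.21 and Trem2 with Tyrobp 1.08 ± 0.04. The pairs among Tyrobp, Apoe and Gpnmb (0.83 ± 0.50 for Tyrobp with Apoe, 1.10 ± 0.55 for Tyrobp with Gpnmb, 1.67 ± 0.47 for Apoe with Gpnmb) rested on 0 to 8 infarct cells in the rarest combination, because nearly every cell had Tyrobp and Apoe. The sign of Apoe with Gpnmb turned in MHC-II-low cells alone, to -0.44, so these 3 pairs carry little information.

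Pathway genes were followed in 5 lists. In TREM2-TYROBP signalling, which holds SYK, PLCG2, SHIP1 (Inpp5d), the sister adaptor Hcst and the sheddases ADAM10 and ADAM17, 0 of 17 genes were called between infarct and baseline in all cells, with a median log2 ratio of -0.20 against -0.17 for all genes. Syk itself was 203 CPM at baseline and 146, 113 and 132 CPM in the infarcts. In macrophage-like cells the count was also 0 of 17. In the Gpnmb division 1 of 17 was higher and 2 were lower: Ctnnb1, which codes for beta-catenin, by 0.33 ± 0.07 (edgeR adjusted p 7.7e-06), Pik3r1 by -0.31 ± 0.08 (0.002) and Adam10 by -0.21 ± 0.07 (0.0098). In the Trem2 division 0 were higher and 2 lower, Malt1 by -0.49 ± 0.09 and Adam10 by -0.24 ± 0.06 (edgeR adjusted p 1.2e-04 and 0.0056). The other 14 and 15 genes of the list were not called.

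Of the other receptors that couple to TYROBP, some were called higher and some lower in cells with Gpnmb. Trem1, an amplifier of inflammatory responses, was lower in cells with Gpnmb (-1.79 on the log2 scale, 2.28 against 8.31 CPM, edgeR adjusted p 5.9e-07) and in cells with Trem2 (-0.88, 5.97 against 11.4 CPM, 2.8e-04). Of the 9 receptors tested in the Gpnmb division 2 were higher and 4 lower, with a median of -0.72 against -0.01 for all genes. Of 10 tested in the Trem2 division 0 were higher, 4 lower and 6 not called, with a median of -0.64. The lower ones included Pilrb1 (-0.89 and -0.92) and Pilrb2 (-0.88 and -0.65), and Sirpb1c was higher with Gpnmb (0.36 ± 0.08). In infarct against baseline 0 of 8 were called over all cells and 2 of 6 in macrophage-like cells, Sirpb1c (16.4 CPM at baseline, 70.1, 62.7 and 58.2 in infarcts) and Sirpb1b. The Sirpb1 and Pilrb genes are near-identical copies whose reads the counting may split, so their values are uncertain.

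Among apolipoprotein and cholesterol genes, 10 of 17 were higher and 1 lower in cells with Gpnmb, and 6 of 16 were higher in cells with Trem2. With Gpnmb, the cholesterol-binding lysosomal transporter Npc1 was higher by 0.79 ± 0.07 (131 against 78 CPM, edgeR adjusted p 1.9e-28), the lysosomal acid lipase Lipa by 0.75 ± 0.05 (8.4e-45), the APOE receptor Lrp1 by 0.79 ± 0.05 (1.4e-49) and Apoc4 by 0.91 ± 0.25 (0.0024) at 8.2 against 4.49 CPM. Lipa, Lrp1 and Npc1 were higher in cells with Trem2 too, by 0.55, 0.42 and 0.40. Between infarct and baseline 0 of 14 were called in all cells and 2 of 14 in macrophage-like cells, Nr1h3, the oxysterol receptor LXR alpha (4.73 CPM at baseline, 19.3, 11.1 and 12.3 in infarcts), and the cholesterol exporter Abcg1 (35 CPM against 96.4, 75.6 and 91.5). Apoc1, Apoc2 and Apoc4, the neighbours of Apoe, were too low for this comparison.

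The lipid-associated macrophage list had the largest share of called genes of the 5 lists in both divisions. In cells with Gpnmb 17 of 22 genes were higher and 1 (Axl) lower, with a median of 0.96 against -0.01 for all genes. The fatty-acid chaperones Fabp5 and Fabp4 were higher by 2.78 ± 0.05 and 1.93 ± 0.11, at 1861 against 279 CPM and 54.7 against 14.8 CPM, Spp1 (osteopontin) by 2.26 ± 0.04 and Lgals3 (galectin-3) by 1.47 ± 0.04. In cells with Trem2 15 of 22 were higher and 1 (Itgax) lower, with a median of 0.41: Spp1 by 1.37 ± 0.06, Fabp5 by 1.21 ± 0.06, the lysosomal protease Ctsd by 1.09 ± 0.05 and the growth factor Igf1 by 0.93 ± 0.06, with edgeR adjusted p of 8.9e-13 or below for these 4. Between infarct and baseline 5 of 20 were called higher and 2 lower in all cells. Ctsd was 449 CPM at baseline and 2618, 2464 and 2548 CPM in the infarcts, and Spp1 was 149 against 1348, 1531 and 1050. Fabp4 and the fatty-acid importer Cd36 went down, from 150 to 30.3, 26.3 and 32 CPM and from 349 to 81.5, 49.7 and 78.7 CPM. Endothelial-like cells, a cell type that also uses both genes, numbered 141 at baseline and 10, 15 and 8 in the infarcts, and their part in the Fabp4 result was not tested. In macrophage-like cells 5 of 20 were higher and 1 lower, with Fabp5 at 129 CPM against 625, 645 and 590. The lower gene there was Cd36, at 393 CPM against 84.9, 41.8 and 76.7, while Fabp4 was 39.4 CPM against 25.5, 16.6 and 24.6 and was not called.

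Genes that regulate or accompany Gpnmb were followed last. Mitf was higher in both divisions, by 0.35 with Gpnmb and by 0.34 ± 0.08 with Trem2 (edgeR adjusted p 0.002 for the second). Of the same list, Tfeb, Tfe3 and Tfec were not called in either division. They differed by 0.22, -0.01 and 0.38 with Gpnmb and by -0.04, -0.01 and 0.22 with Trem2. Between infarct and baseline Mitf was not called, at 54.1 CPM in all baseline cells and 48, 43.8 and 49.7 in infarcts. With Gpnmb, 5 of 10 were higher and 1 lower: the vacuolar ATPase subunit Atp6v0d2 by 2.89 ± 0.18 (26.5 against 3.66 CPM), cathepsin K (Ctsk) by 2.49 ± 0.24 (13.5 against 2.47 CPM), the tartrate-resistant phosphatase Acp5 by 0.71 ± 0.07 and Lamp1 by 0.51 ± 0.04, with edgeR adjusted p of 1.7e-23 for Ctsk and 1.5e-22 for Acp5. Sdc4, a heparan sulfate proteoglycan that binds GPNMB, was the lower one (-0.31). With Trem2, 4 of 10 were higher and 1 lower, Atp6v0d2 by 1.41 ± 0.22 and the hyaluronan receptor Cd44 by -0.48 ± 0.06. Between infarct and baseline 2 of 10 were called, Ctsk (2.2 CPM at baseline and 9.5, 137 and 22.2 in infarcts, uneven between hearts) and Acp5 (18.6 against 83, 187 and 95.6). In macrophage-like cells Acp5 alone of 8 was called, at 15 CPM against 87, 101 and 92.9.

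**Figure D5:**
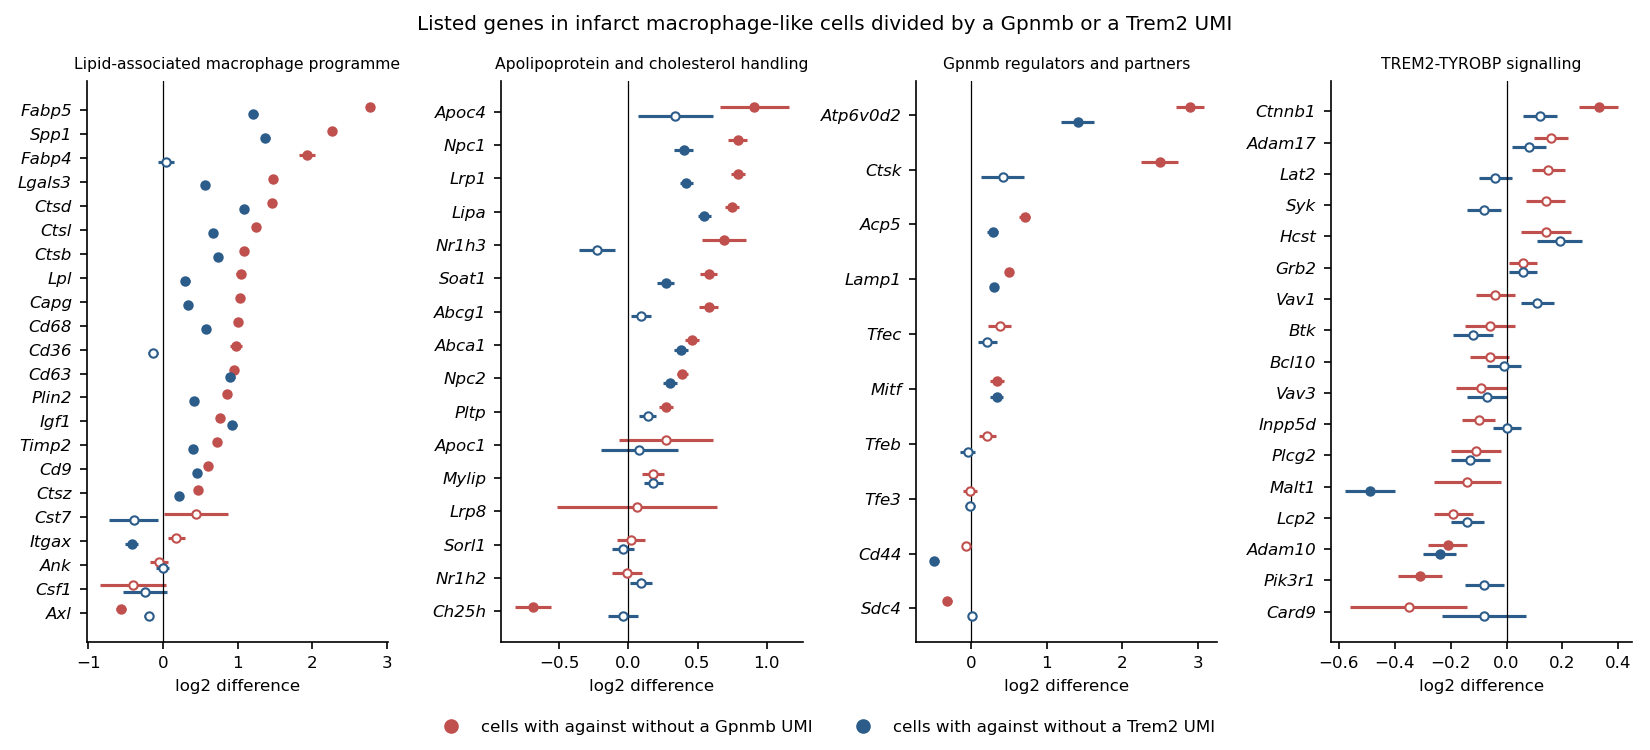
Log2 difference (horizontal axis) of listed genes between infarct macrophage-like cells with and without a Gpnmb UMI (red) or a Trem2 UMI (blue); filled points passed an adjusted p of 0.01 in edgeR, open points did not, and bars are standard errors. Lipid-associated genes such as Fabp5 (2.78 with Gpnmb, 1.21 with Trem2) lie to the right, and TREM2-TYROBP signalling genes lie near 0.

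Likeness of pattern was measured as Pearson's r of log2(CPM + 10) over 60 sums of a library and a class, from 4 libraries, for 3174 genes averaging 50 CPM or more. The sums of a library share its depth and its heart, so r is a description. Trem2 was most like Apoe (0.95), followed by the complement receptor C3ar1 (0.94), Ctsb and Ms4a7 (both 0.93) and Lgmn (0.92). Apoe was most like Trem2 and the macrophage marker Adgre1 (both 0.95), then Ms4a7 (0.94), Pla2g15 and C3ar1 (both 0.93). Gpnmb was most like Syngr1 (0.93), Uap1l1 (0.88), the vacuolar ATPase subunit Atp6v1c1 (0.86), Dtnbp1 and the ferritin light chain Ftl1 (both 0.84). Tyrobp was most like the Fc receptor gamma chain Fcer1g, another signalling adaptor (0.90), then Gpsm3 and the myeloid factor Spi1, which codes for PU.1 (both 0.88), Csf2ra (0.87) and Arpc1b (0.86). Among the members, Gpnmb had an r of 0.79 with Trem2 and 0.67 with Apoe, and Tyrobp had 0.31, 0.32 and 0.22 with Trem2, Apoe and Gpnmb.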

How the data were processed

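CSF1R+ Ly6G- cardiac cells of 1 baseline library (3 pooled hearts) and 3 infarct libraries (1 heart each) had been profiled by droplet-based sequencing. The tables deposited by the authors hold UMI counts of each gene in each cell, not normalised, from Cell Ranger 3.1.0 (file header; the submitters' processing notes list 3.0.1) and mm10. No column of the tables was left unused. Everything after these counts was computed here. The cell filter was that of the study, and genes had to be found in at least 3 cells, which kept 18865 of 31053.

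The members, gene lists and marker lists were chosen with earlier results of these data known, and the gate thresholds were set after seeing the distributions of marker shares. Gates were applied in a fixed order, and cells passing both the C1q gate and a B-cell, endothelial, fibroblast or granulocyte gate were set aside as mixed. CPM are sums per library without mitochondrial genes. Intervals are exact Poisson 95% intervals (scipy 1.17.1) and cover counting error only. Class contrasts and divisions used 2 sums per infarct library (edgeR 4.0.16, R 4.3.3; TMM, filterByExpr, quasi-likelihood test, library block, Benjamini-Hochberg over every gene tested). The pairing is by heart, since each library gives both of its sums. Deviations of the 2 sums correlated at 0.44 to 0.54 in the Gpnmb division and 0.55 to 0.72 in the Trem2 division. A class needed 20 cells in every infarct library to be tested. Cells are not replicates. Thinning drew 2000 UMIs per cell from 1 seed, and shallower cells were left out, 804 baseline and 613 to 946 infarct macrophage-like cells per library. The gene that divided the cells was not tested.

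Named genes are the members, up to 4 called genes of each list with the largest change, and the 5 genes most like each member, 1 listed gene not being reported here. Syk, Axl, Itgax, Sdc4, Tfeb, Tfe3 and Tfec were added after their values were seen. So were the Mitf value with Gpnmb and the Mitf levels of infarct and baseline. Other settings were DESeq2 1.42.0 size factors and Wald test, no filter, no block, each infarct library left out, other gates, comparators and depths, no cells over 10% mitochondrial UMIs, and doublets removed; 3 further thinning draws were chosen after seeing the data. Scrublet (scanpy 1.11.5) marked 2.21% of baseline and at most 0.00962% of infarct cells by its automatic threshold, so it had not worked, and the highest-scoring 8.1% to 8.63% were removed instead; doublets stayed in elsewhere. Simulated sums with known changes were used to test the fits. Analyses ran in Python 3.11.15 with numpy 2.4.6, pandas 2.3.3 and matplotlib 3.10.9. Positions come from GENCODE M21 and promoter windows from RefSeq.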

Additional observations from a re-analysis of the deposited data

Results flagged for a closer look

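Gpnmb differed in direction between classes when infarct was set against baseline. In Spp1-high macrophage-like cells its log2 ratio was -1.41 (2125 CPM at baseline from 27 cells, 801 on average in the infarcts, all 3 below), and in MHC-II-low macrophage-like cells -0.27 (232 against 192 CPM, all 3 below). In 6 other classes with more than 3 baseline UMIs of Gpnmb all 3 infarct libraries were above baseline. Non-classical monocyte-like cells, 1 of these 6, rested on 9 Gpnmb UMIs at baseline and on 2, 1 and 2 in the infarcts. Among thinned MHC-II-low cells, a Gpnmb UMI was found in 10 of 255 (3.92%) at baseline. The infarct mean was 18.4% (16 to 20.7), so the share of cells with Gpnmb went the other way from the level. Baseline cells of that gate were also shallower, with a median of 4182.5 UMIs against 8444 to 8719. The difference between the classes was not tested, since the baseline is 1 library.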

How the results depend on the processing

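Trem2, Apoe and Gpnmb were over 2-fold higher in every infarct library than in baseline under each alternative setting run, except that on the fixed mixture of classes the call held for Trem2 and not for Apoe or Gpnmb. Leaving out 1 infarct library at a time, log2 ratios ran from 2.03 to 2.20 for Trem2, 0.43 to 0.46 for Tyrobp, 1.54 to 1.79 for Apoe and 1.47 to 1.75 for Gpnmb. Values that moved by more than the spread were those of Tyrobp and Gpnmb when CPM were averaged over cells (0.48 and 2.57), thinned to 2000 UMIs (0.41 and 2.36) or in macrophage-like cells only (0.57 and 1.96), and those of Trem2 and Tyrobp with TMM scaling (2.35 and 0.69). In the divisions, which called 1500 genes by Gpnmb and 1059 by Trem2, the DESeq2 Wald test called 549 and 409, thinning to 1000 UMIs 761 and 574, and the MHC-II-low class alone 494 and 170; leaving out 1 library gave 938 to 1136 and 734 to 971. Without the replicate block 240 and 5 genes were called. The block also decided the calls of Tyrobp (0.26 by Gpnmb and 0.23 by Trem2, not called without it) and Apoe (0.36 and 0.74, not called). With a library left out, differences ran from 0.77 to 0.91 (Trem2), 0.22 to 0.30 (Tyrobp) and 0.33 to 0.40 (Apoe) by Gpnmb, and from 0.22 to 0.26 (Tyrobp), 0.68 to 0.83 (Apoe) and 1.80 to 1.97 (Gpnmb) by Trem2, and the Tyrobp calls were lost without infarct replicate 3. In the MHC-II-low class alone they were 0.52 (Trem2) and 0.22 (Apoe) by Gpnmb and 1.11 (Gpnmb) and 0.42 (Apoe) by Trem2, and Gpnmb by Trem2 ran from 1.47 at 1000 UMIs to 2.71 at 4000.

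The 40 class calls became 29 without the replicate block and 37 to 43 elsewhere. Contrasts whose sign turned lay near 0 or were not called. Tyrobp in Ccr2 cells was 0.00044 with DESeq2 size factors, 0.00049 with its Wald test, -0.02 to 0.0035 with a library left out and 0.04 with gates halved. Trem2 in MHC-II-high cells was -0.0025 with no filter, -0.00028 without the block, -0.0026 without cells of high mitochondrial share, -0.04 to 0.03 with a library left out, -0.24 with gates doubled and -0.13 against macrophage-like and monocyte-like cells, and the last pair were called. Tyrobp in Spp1-high C1q-low cells was -0.0016 with gates doubled, -0.02 thinned, -0.0041 against that comparator and -0.05 to 0.07 with a library left out. With gates halved, Trem2 and Apoe in resident cells were 0.10 and 0.02, and with gates doubled they were -0.83 and -0.89 and called. Apoe in Saa3 Arg1, classical and non-classical monocyte-like cells and Gpnmb in mature dendritic-like cells were not called by the DESeq2 Wald test (adjusted p 0.02, 0.018, 0.015 and 0.038). The cause was not tested.

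Mean log2 odds ratios of co-detection depend on depth. At 1000 UMIs they were 0.60 for Trem2 with Tyrobp, 1.85 for Trem2 with Apoe, 1.45 for Trem2 with Gpnmb and 0.42 for Tyrobp with Gpnmb. At 4000 UMIs they were 0.30, 2.78 and 2.45 for the first 3 pairs, 5.87 for Tyrobp with Apoe and 0.97 for Apoe with Gpnmb. In MHC-II-low cells alone they were 1.78, 1.51, 1.22, 5.26 and, for Apoe with Gpnmb, -0.44. With doublets removed Trem2 with Tyrobp was 1.02. Leaving out a library gave 1.73 to 1.84 for Trem2 with Gpnmb. The baseline library had 78 cells with a Gpnmb UMI after thinning, and this small number limits what they can show.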

Other observations

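Levels in small classes that were not tested rest on few infarct cells. Type 1 dendritic-like cells (50 at baseline) had Trem2 at 5.12 CPM at baseline and 4.08, 9.47 and 15.6 CPM in infarct replicates 1, 2 and 3, with Tyrobp at 1840 CPM against 2139, 1260 and 1758. Those Trem2 levels come from 2 UMIs at baseline and from 1, 1 and 2 in the infarcts. Endothelial-like cells (141 at baseline) had no Gpnmb UMI in any library. Fibroblast-like cells, 6 at baseline and 49 in the infarcts, had Apoe at 1042, 795 and 2212 CPM in the infarcts and Trem2 at 25.7, 10.5 and 14.4 CPM. B-cell-like cells, 25, 7 and 40 in infarct replicates 1, 2 and 3, had Gpnmb at 0 CPM in replicates 1 and 2 and at 254 CPM in replicate 3. Their Trem2 was 153, 387 and 230 CPM and their Apoe 5874, 18053 and 5483 CPM.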
